A study of Mus musculus with 13 samples.

Results

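Neuro2a is a mouse neuroblastoma cell line whose cells can grow neurite-like processes. The comparison described here sets Neuro2a cells that had survived a failed cryostorage against cells that had stayed frozen, both grown to passage 6 after thawing. It covers 12458 of the 34857 genes in the deposited tables, those with at least 1 FPKM in at least 3 of the 6 passage 6 libraries, out of 13 libraries in the series. FPKM are sequenced fragments divided by transcript length and by the size of the library. Both groups were frozen in 10% DMSO, a cryoprotectant, and both were thawed at 37 °C. The experimental vials stood in a container whose liquid nitrogen evaporated over 10 h, were then held for 24 h at 4 °C, and spent 72 h at -80 °C before thawing. The control vials stayed in normal cryostorage until they were plated, and their RNA was collected at the same passage. By passage 6 the survivors looked normal again, per the series' design text, so the comparison asks which differences in expression were present at that stage. Each group has 3 libraries of poly(A) RNA. The labels do not say whether the libraries of a group come from separate vials, dishes or RNA preparations, so the p-values speak only to the spread among these libraries, and that spread may be technical. The number of reads behind a value is unknown, because FPKM hold no counts.

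Several of the gene groups described below have well-studied regulators. Serum response factor, encoded by Srf, binds a short AT-rich element called the CArG box in the promoters of actin, myosin and immediate early genes, together with cofactors that sense the pool of free actin. The membrane-bound factor encoded by Srebf2 is released when sterols are scarce, and turns on the enzymes of cholesterol synthesis. Hypoxia-inducible factors raise glycolytic enzymes and the mitophagy gene Bnip3 when oxygen falls. Neuroblastoma cells descend from the sympathetic lineage and carry parts of its noradrenaline-making programme.

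The experimental libraries were not alike. Markers of the line itself were high in every library: the summed level of 18 neuroblastoma factors, such as Hand2, was 451 to 459 FPKM in the controls and 494 to 511 FPKM in the experimental libraries. Markers of liver, brain and fibroblasts were high in experimental libraries 2 and 3. The 20 liver markers summed to 264 and 221 FPKM there, against 8.51 to 16.4 FPKM in the other 4 libraries, and 17 of the 20 reached 1 FPKM in each of these 2 libraries against 1 elsewhere. Albumin (Alb) was at 67.4 and 56.8 FPKM in them and at 0 in the other 4. The 11 fibroblast markers summed to 160 and 143 FPKM in libraries 2 and 3, to 10.5 to 17.1 FPKM in the controls and to 5.47 FPKM in experimental library 1, and the 20 brain markers to 138 and 115 FPKM against 43.7 to 46.7 FPKM in the other 4. Colon and cartilage markers ran the other way. The 25 markers of colon epithelium summed to 133, 264 and 313 FPKM in the controls, 124 FPKM in experimental library 1 and 8.47 and 8.55 FPKM in libraries 2 and 3, while the 17 cartilage markers summed to 41.4 to 66.6 FPKM in the controls and 22.3 to 26.7 FPKM in all 3 experimental libraries. In all, 100 genes were at 1 FPKM or more in both experimental libraries 2 and 3 and under 0.1 FPKM in the other 4, against 0 to 2 genes for each of the other 14 pairs of libraries. These 100 genes held 0.128% and 0.104% of the FPKM of the 2 libraries. None of them entered the test, which needs 1 FPKM in 3 libraries. The part of these transcripts in the results below was not tested, and where levels are printed library by library, experimental library 1 stands first of the 3 experimental values.

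**Figure D1:**
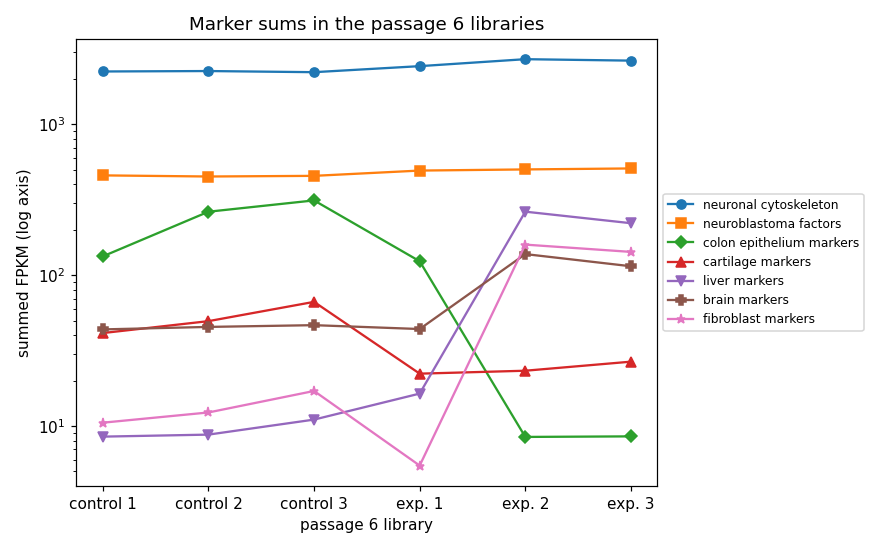
Summed FPKM of 7 marker lists (log axis) in the 3 control and 3 experimental (exp.) libraries of passage 6, each line standing for 1 list. The neuroblastoma and neuronal lists are high in every library, the liver and fibroblast lists rise above 100 FPKM in experimental libraries 2 and 3, and experimental library 1 sits near the controls for the colon, liver and brain lists.

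Of the genes tested, 2462 (19.8%) differed between the groups at an adjusted p under 0.05 and are called changed here. In the survivors 1119 (8.98%) were higher and 1343 (10.8%) were lower, and in a bulk library fewer cells of a type and less RNA per cell cannot be told apart. Few changes were large: 29 genes (0.233%) rose and 88 (0.706%) fell by at least 2-fold, a fold being 2 to the power of the log2 change of FPKM + 1. These 2 counts are not on equal terms. Transcripts found only in the 3 controls can pass the filter, while those found only in experimental libraries 2 and 3 cannot. Among the largest falls were the cartilage gene Col2a1 and the colon markers Dmbt1, Zg16 and Krt8. For each of the 2462 genes the 3 experimental values lay outside the range of the 3 control values. A call with 3 libraries against 3 all but requires this. Such a gap therefore lends a call no further support, here or for single genes below. The count depended on single libraries: it was 836, 723 and 777 without control 1, 2 or 3, 4296 without experimental library 1, and 1733 and 1609 without experimental library 2 or 3. A core of 618 genes was called, in the same direction, whichever 1 library was left out. It held 21 of the 29 genes that rose at least 2-fold and 36 of the 88 that fell at least 2-fold. With experimental library 1 as the only experimental library, 2401 genes were called. The shares of 8.98% higher and 10.8% lower are those against which list counts from the fit with all libraries are read. List counts from a fit that left out 1 library stand against other totals over all 12458 genes. Higher and lower genes numbered 418 and 418, 397 and 326, and 400 and 377 without control 1, 2 or 3. They numbered 1885 and 2411, 883 and 850, and 729 and 880 without experimental library 1, 2 or 3.

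Contractile genes rose. Of 17 listed genes of the contractile actin and myosin apparatus, 13 were tested, 8 rose and 0 fell, with a median log2 change of 0.35 against -0.04 over all genes tested. The 4 that were not tested, the smooth muscle genes Cnn1, Myh11, Mylk and Lmod1, were at most 0.272 FPKM in every library. Acta2, the alpha-actin gene of smooth muscle, has the identifier and position ENSMUSG00000035783, chromosome 19, 34241090 to 34255590, minus strand, GRCm38. It was at 7.04, 6.63 and 10.9 FPKM in controls 1, 2 and 3 and at 85.4, 82.7 and 95.3 FPKM in experimental libraries 1, 2 and 3. The groups were far apart, and experimental library 1 lay between the other 2. Its log2 change was 3.30 ± 0.16 (SE), or 9.84-fold, with an adjusted p of 0.000538 (limma, 3 against 3 libraries). The regulatory myosin light chain gene Myl9 was at 1.88, 2.24 and 2.96 FPKM in the controls and at 9.99, 11.2 and 12.4 FPKM in the experimental libraries, a log2 change of 1.86 ± 0.13 (SE). Actg2, the actin gene of visceral smooth muscle, was under 1 FPKM in each control (0.457, 0.484 and 0.883 FPKM) and rose to 5.19, 3.04 and 4.11 FPKM. The calponin gene Cnn2 (log2 change 0.35), the tropomyosin genes Tpm1 (0.30) and Tpm2 (0.27) and the nonmuscle myosin gene Myh9 (0.40) rose by smaller amounts. The Cnn2, Tpm1 and Tpm2 calls ended without control 1, 2 or 3, with adjusted p-values (limma) of 0.054 to 0.0694, 0.0828 to 0.109 and 0.0695 to 0.0901, and those of Tpm1 and Tpm2 also ended without experimental library 2 (0.0564) and 3 (0.0511). Srf itself was at 18.9, 17.9 and 17.5 FPKM in the controls and 26.6, 24.2 and 23.9 FPKM in the experimental libraries, a log2 change of 0.44 ± 0.06 (SE). Tagln, another smooth muscle gene, did not pass the test: it was at 0.438, 1.11 and 0.265 FPKM in the controls, 0.383 FPKM in experimental library 1 and 1.97 and 1.95 FPKM in libraries 2 and 3. Experimental library 1 alone against the controls called 6 of the 13 genes higher. Without control 1, 2 or 3 the count of higher genes was 5 each time.

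The promoters of 4 of the genes that rose are printed because their CArG boxes can be read directly. Each line gives the 250 bases before the RefSeq transcription start (build GRCm38.p6), 5′ to 3′ on the strand of the gene, with matches to the CArG box in capitals. The Acta2 position printed above is from another annotation, in which the gene starts further upstream, so the Acta2 window overlaps it. The same holds for Myl9, which starts at 156775420 in that annotation. Srf, Cnn2 and the first box of Myl9 are strict matches, in which the 6 bases between the flanking pairs are all A or T, and Acta2 and the second box of Myl9 hold 1 C or G among those 6.
Acta2 (chr19:34255374-34255623, minus strand): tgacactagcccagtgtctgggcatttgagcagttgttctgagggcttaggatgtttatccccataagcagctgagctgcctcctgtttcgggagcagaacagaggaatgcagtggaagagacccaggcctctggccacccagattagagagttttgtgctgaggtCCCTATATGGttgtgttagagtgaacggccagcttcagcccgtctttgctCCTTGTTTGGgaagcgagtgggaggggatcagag
Myl9 (chr2:156775214-156775463, plus strand): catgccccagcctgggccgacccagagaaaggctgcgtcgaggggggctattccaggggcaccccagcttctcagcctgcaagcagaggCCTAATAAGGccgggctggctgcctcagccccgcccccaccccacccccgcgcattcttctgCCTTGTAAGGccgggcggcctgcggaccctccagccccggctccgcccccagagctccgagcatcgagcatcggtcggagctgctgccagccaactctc
Srf (chr17:46556163-46556412, minus strand): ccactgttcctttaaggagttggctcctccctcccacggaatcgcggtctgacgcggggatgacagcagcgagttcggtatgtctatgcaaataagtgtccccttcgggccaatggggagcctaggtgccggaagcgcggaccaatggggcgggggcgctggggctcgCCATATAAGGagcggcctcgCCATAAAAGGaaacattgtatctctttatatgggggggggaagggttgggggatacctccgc
Cnn2 (chr10:79988350-79988599, plus strand): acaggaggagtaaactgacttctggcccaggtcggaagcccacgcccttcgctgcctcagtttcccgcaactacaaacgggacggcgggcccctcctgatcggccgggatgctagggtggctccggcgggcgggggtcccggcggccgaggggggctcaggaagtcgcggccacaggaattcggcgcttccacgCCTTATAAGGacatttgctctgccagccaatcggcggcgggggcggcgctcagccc
Of 11 contractile genes with such a window, 4 held a strict match on either strand (Cnn2, Myl9, Srf and Vcl) and 3 a match with 1 substitution (Acta2, Mrtfa and Myl9). Over all 32851 promoter windows of this length the shares were 1.47% and 7.25%. Actin and myosin genes are a known class of Srf targets, so setting the list beside these shares is no test. The windows of Tpm1, Tpm2 and Myh9, which also rose, held neither kind of match. Vcl, the vinculin gene, did not pass the test at passage 6 although its window holds a match, with a log2 change of 0.16. A match is a description of the letters and says nothing about binding in these cells.

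**Figure D2:**
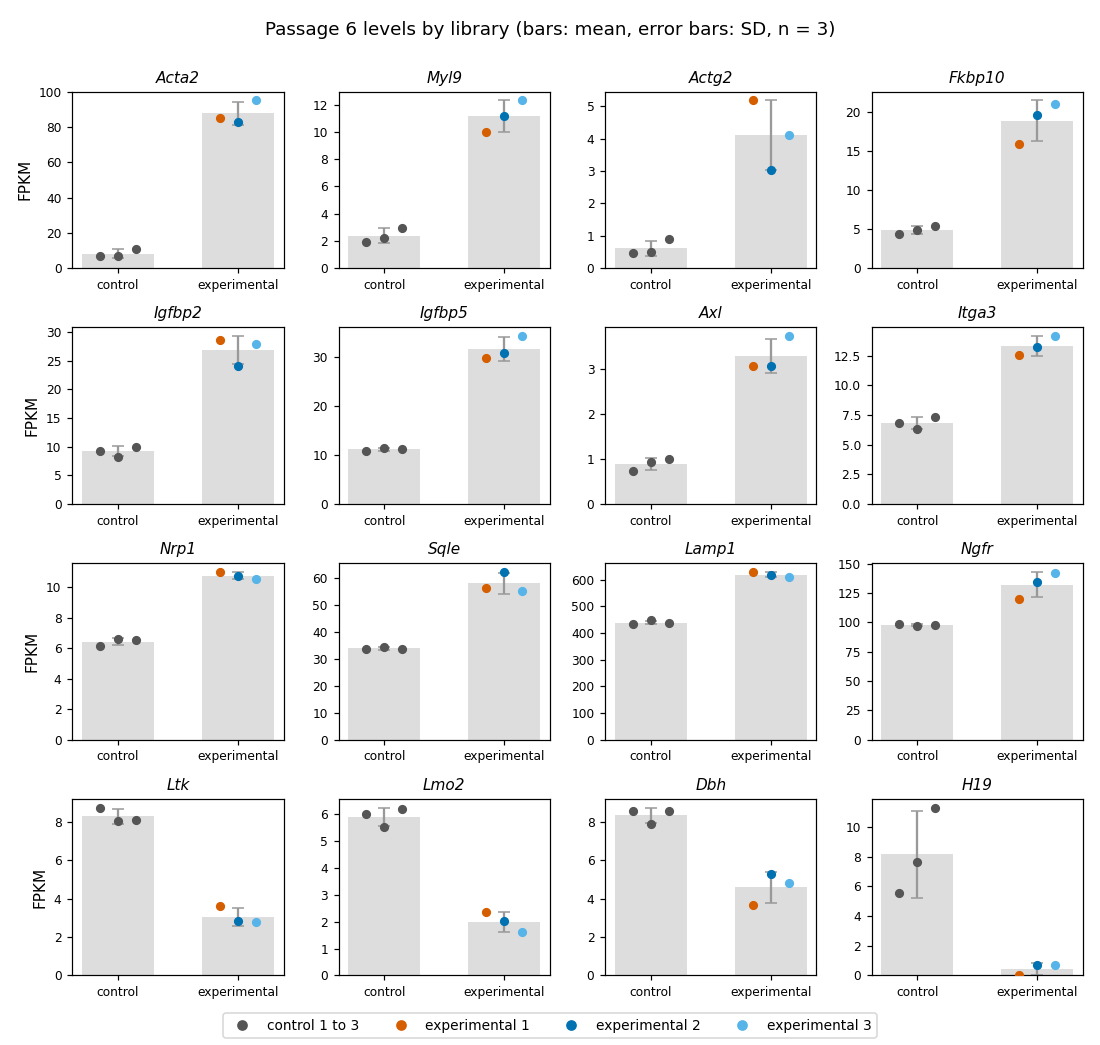
FPKM of 16 named genes in each passage 6 library, with bars for the mean and error bars for the SD of 3 libraries. Experimental library 1 (orange) lies with experimental libraries 2 and 3 and apart from the controls in each panel, with Acta2 at 82.7 to 95.3 FPKM against at most 10.9 FPKM in a control. A gap of this kind is all but required of a gene called with 3 libraries against 3.

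Genes of the matrix and its assembly split. Among 18 genes of collagen folding and hydroxylation, 4 rose and 4 fell (median log2 change 0.10). Fkbp10, a prolyl isomerase of the endoplasmic reticulum that helps collagen fold, was at 4.32, 4.93 and 5.39 FPKM in the controls and at 15.9, 19.7 and 21.1 FPKM in the experimental libraries, a log2 change of 1.75 ± 0.11 (SE). Its relative Fkbp9 rose by 0.34 on the log2 scale. The collagen prolyl 4-hydroxylase genes P4ha1 and P4ha2 went the other way. P4ha1 was at 75.4, 74.4 and 73.6 FPKM in the controls and 56.4, 55.3 and 56 FPKM in the experimental libraries (log2 change -0.41). P4ha2 had a log2 change of -0.44. Of 9 laminin and basement membrane genes tested, 1 rose and 4 fell (median -0.18), and 6 were called lower with experimental library 1 alone. The laminin beta-2 gene Lamb2 was the one that rose, from 13, 13.9 and 13.3 to 18.6, 19.6 and 23.6 FPKM. The laminin alpha-4 gene Lama4 fell, from 41.6, 39.7 and 39.3 FPKM to 26.8, 23.7 and 28.3 FPKM, as did the collagen genes Col18a1 (log2 change -0.57) and Col4a2 (-0.33). Here and below, values of controls 1, 2 and 3 stand first and those of experimental libraries 1, 2 and 3 follow. All 3 experimental libraries lay on the same side of the controls for each of these genes, as a call all but requires. For collagen folding the counts higher and lower were 3 and 2, 3 and 2, and 2 and 2 without control 1, 2 or 3, and 8 and 4 without experimental library 1.

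In the insulin-like growth factor system 3 of 11 tested genes rose and 3 fell. The 3 that rose encode binding proteins, which carry the growth factor outside the cell and limit or prolong its action. Igfbp2 was at 9.31, 8.26 and 9.99 FPKM in the controls and 28.7, 24.2 and 27.9 FPKM in the experimental libraries (log2 change 1.46 ± 0.09, SE). Igfbp5 was at 10.8, 11.4 and 11.1 FPKM against 29.6, 30.8 and 34.2 FPKM (1.43 ± 0.06), and Igfbp4 at 50.3, 50.4 and 48.5 FPKM against 66.2, 74.7 and 72.3 FPKM (0.51 ± 0.06). The growth factor gene Igf2 fell: it was at 3.24, 3.95 and 6.95 FPKM in the controls and listed at 0.00017, 1.16 and 0.0923 FPKM in the experimental libraries. Its imprinted neighbour H19, a noncoding RNA, was at 5.52, 7.67 and 11.3 FPKM in the controls and at 0, 0.686 and 0.691 FPKM in the experimental libraries. The cartilage collagen gene Col2a1 had the same order of libraries among the controls, 11.8, 15.8 and 24.9 FPKM, and was at most 0.325 FPKM in an experimental library. Control 3 was highest and control 1 lowest for all 3 genes and for the cartilage marker sum, and 7 of 9 tested cartilage markers were called lower. Of the 17 cartilage markers, 9, 10 and 13 reached 1 FPKM in controls 1, 2 and 3, against 4 in each experimental library. A marker could thus enter the test through the controls alone, which favours lower calls. Without control 2 or 3 the cartilage count was 3 and 4, and without any 1 control 1 gene of the growth factor list was called lower. Whether Igf2 and H19 fell in the Neuro2a cells themselves was not tested.

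Surface receptors and adhesion genes changed in both directions. Sdc3, the gene of a heparan sulfate proteoglycan of neural cells, was at 16, 16 and 15.5 FPKM in the controls and at 31, 33 and 36.1 FPKM in the experimental libraries (log2 change 1.03 ± 0.06, SE). The receptor tyrosine kinase gene Axl was at 0.725, 0.929 and 0.994 FPKM against 3.06, 3.05 and 3.73 FPKM, so that every survivor library was above 3 FPKM and every control under 1 FPKM. Among 20 integrin and annexin genes 4 rose and 4 fell. The alpha integrin genes Itga3 (6.79, 6.32 and 7.31 against 12.5, 13.2 and 14.2 FPKM) and Itga5 (4.83, 4.67 and 4.8 against 8.32, 9.49 and 10.6 FPKM) were among those that rose, while Itga7 fell from 9.76, 8.92 and 8.61 to 5.99, 5.66 and 4.83 FPKM. Without any 1 control 2 genes of this list were called higher. The coagulation receptor gene F3 had a log2 change of 0.55. Outside these lists, the genes with large rises included the leucine-rich repeat gene Lrrn2 (3.63, 3.26 and 2.9 against 7.28, 9.15 and 9.09 FPKM), the GDP-dissociation inhibitor gene Arhgdib (6.85, 6.54 and 7.1 against 13.3, 15 and 16.6 FPKM) and the secreted-factor gene Fam3c (24.3, 24.9 and 25.5 against 53.5, 45.1 and 49.9 FPKM). Selenow, a selenoprotein gene (log2 change 1.07), and Tcn2, which encodes the carrier of vitamin B12 (1.05), also rose, with experimental library 1 nearest to the controls: Selenow was at 20.8, 23.3 and 21.5 FPKM in the controls and 33.5, 58 and 52.7 FPKM in the experimental libraries.

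Receptors of several guidance and growth signals rose together in count. Of 12 tested semaphorin receptor and ligand genes 8 rose and 0 fell (median log2 change 0.26), and of 15 Wnt pathway genes 8 rose and 0 fell (median 0.25), against 8.98% higher and 10.8% lower over all genes. The semaphorin co-receptor gene Nrp1 was at 6.16, 6.58 and 6.55 FPKM in the controls and 11, 10.8 and 10.5 FPKM in the experimental libraries, the plexin gene Plxna1 at 42.8, 40.6 and 42.2 FPKM against 57.2, 62.3 and 70.7 FPKM, and the ligand gene Sema6a at 3.46, 3.43 and 3.3 FPKM against 4.57, 5.18 and 5.6 FPKM. The Wnt receptor genes Fzd2 (log2 change 0.82) and Fzd7 (0.55) and the ligand gene Wnt5a (0.71) rose, Fzd7 from 12.3, 12 and 12.5 to 18.6, 17.6 and 19.1 FPKM. Of 6 tested neurotrophin and GDNF receptor genes 4 rose, with Ngfr, the low-affinity neurotrophin receptor gene, at 98.3, 96.7 and 98 FPKM in the controls and 120, 134 and 142 FPKM in the experimental libraries and Gfra1 at 1.08, 1.06 and 1.04 FPKM against 1.76, 2.31 and 2.51 FPKM. In the TGF-beta list 6 of 16 rose and 1 fell. The induced matrix gene Tgfbi (log2 change 0.67) and the receptor gene Bmpr2 (0.60) rose, and the inhibitor gene Smad7 fell from 12.2, 12.3 and 11.4 to 8.18, 6.6 and 8.26 FPKM. With experimental library 1 alone the counts higher and lower were 5 and 0 for semaphorin genes, 5 and 1 for Wnt genes, 4 and 0 for neurotrophin receptors and 6 and 2 for TGF-beta genes. Leaving out any 1 control gave 4 semaphorin genes higher, 5 or 6 Wnt genes and 2 neurotrophin receptor genes, and leaving out experimental library 2 or 3 gave 5 and 4 semaphorin genes and 7 and 5 Wnt genes.

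The cytokine and immediate early lists held single genes that rose among others that fell. Ccl2 encodes a chemokine that draws in monocytes. It was at 1.46, 0.996 and 2.25 FPKM in the controls and 15.7, 6.99 and 9.14 FPKM in the experimental libraries, highest in experimental library 1 (log2 change 2.14 ± 0.28, SE). Ccl2 was the 1 gene that rose of 14 tested NF-kB and cytokine genes, of which 6 fell. Nfkb1, a subunit of the factor, was at 6.31, 6.55 and 6.17 FPKM against 4.55, 4.28 and 4.44 FPKM, and Nfkbia, its inhibitor, at 49.3, 51.2 and 52.9 FPKM against 40.9, 38 and 41.6 FPKM. Among 22 immediate early genes 4 rose and 4 fell. Egr2 was at 1.52, 1.83 and 1.5 FPKM in the controls and 3.4, 2.77 and 2.74 FPKM in the experimental libraries (log2 change 0.60), and its relative Egr1 had its highest value, 63.4 FPKM, in experimental library 1. The Egr1 call rested on control 1, with an adjusted p of 0.0504 without it and 0.05 without control 2. The AP-1 gene Jun fell from 50.5, 50.2 and 49 to 36.8, 34.5 and 35.1 FPKM, the stress factor gene Atf3 from 14.8, 13.3 and 13.8 to 10.3, 8.8 and 8.58 FPKM, and the kinase phosphatase gene Dusp1, listed with the ERK feedback genes, from 13.7, 13.8 and 13.6 to 9.48, 8.86 and 10.2 FPKM. For Jun, Atf3 and Dusp1 the 3 experimental libraries lay close together and below the controls, which a call all but requires. The 4 higher immediate early genes were 1, 2 and 2 without control 1, 2 or 3 and 2 without experimental library 2. The 6 lower NF-kB genes were 4 after median-of-ratios scaling and 3 after quantile normalization, and 2 without control 1, 2 or 3 or experimental library 2, and 3 without experimental library 3.

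Genes of cholesterol synthesis rose. Of 22 tested genes 17 rose and 0 fell, with a median log2 change of 0.50. Without control 1, 2 or 3 there were 14 higher each time, and without experimental library 1, 2 or 3 there were 18, 15 and 16. In each of these fits 0 were lower. The list medians were 0.43, 0.65 and 0.45 in experimental libraries 1, 2 and 3. Nsdhl, a sterol dehydrogenase gene, was at 3.64, 3.94 and 3.94 FPKM in the controls and 8.79, 8.53 and 7.38 FPKM in the experimental libraries (log2 change 0.93 ± 0.07, SE, adjusted p = 0.00136, limma). Sqle, which encodes squalene epoxidase, was at 33.6, 34.6 and 33.9 FPKM against 56.6, 62.5 and 55.4 FPKM (0.76 ± 0.06). The farnesyl diphosphate synthase gene Fdps was at 12.3, 13.9 and 12.6 FPKM against 20, 25.4 and 19.6 FPKM, and the sterol oxidase gene Msmo1 at 11.6, 12.1 and 11.9 FPKM against 19.2, 21.2 and 17.4 FPKM. In each of these 4 genes every survivor library lay above every control, experimental library 1 included, as a call all but requires. The regulator Srebf2 was at 84.8, 83.6 and 83.7 FPKM in the controls and 116, 148 and 131 FPKM in the experimental libraries, with library 1 lowest of the 3. Lss (log2 change 0.11), Ebp (-0.07) and the cholesterol carrier gene Stard4 (-0.01) were among the 5 that did not pass the test. At passage 1 the same list had 1 gene higher and 3 lower, against 11.5% and 18.9% of all genes, and a median of -0.02. For 13 of the 22 genes the passage 6 change was above the passage 1 change by the test of the difference. The share over all 13019 genes in that test was 8.46%.

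Hmgcs1, which encodes the enzyme that makes HMG-CoA, rose from 10.1, 11.2 and 11 to 14.9, 17.8 and 14.7 FPKM. Its promoter is shown because it was the only one, of 15 cholesterol genes with a RefSeq window, to hold the sterol regulatory element core, spelled TCACCCCAC, on either strand (in capitals below). Of all 32851 windows 0.496% hold this 9-base core.
Hmgcs1 (chr13:119690101-119690350, plus strand): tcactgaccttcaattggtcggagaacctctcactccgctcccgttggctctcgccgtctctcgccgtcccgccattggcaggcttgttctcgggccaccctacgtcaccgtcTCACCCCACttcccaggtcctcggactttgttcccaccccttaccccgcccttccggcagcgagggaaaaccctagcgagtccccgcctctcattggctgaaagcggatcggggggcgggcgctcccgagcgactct
No match in the other windows says only that these letters are not within 250 bases of the annotated start.

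**Figure D3:**
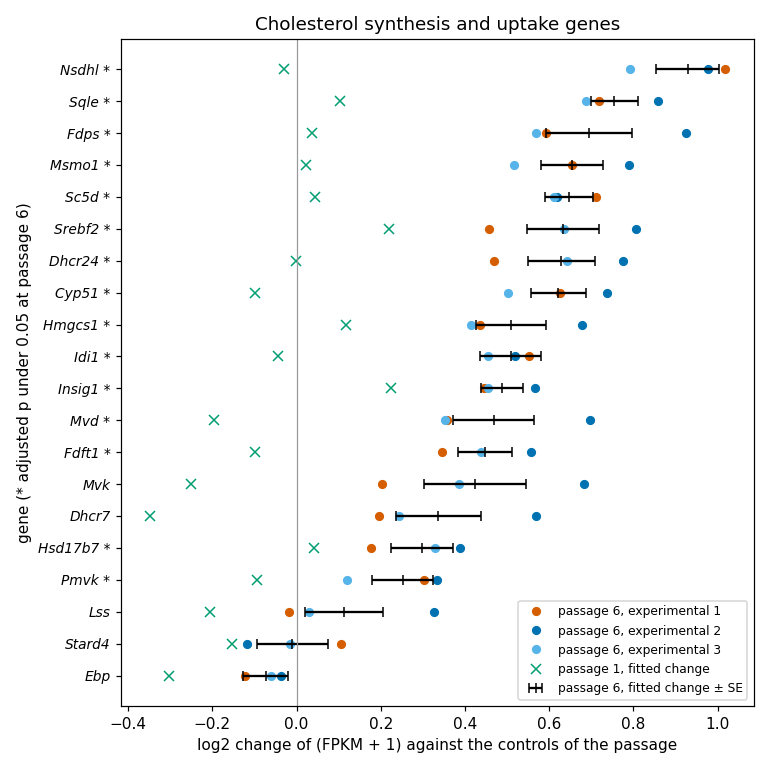
Log2 change of (FPKM + 1) for 20 of the 22 tested cholesterol genes. Coloured points are single passage 6 experimental libraries minus the control mean, black bars the fitted passage 6 change ± SE, and green crosses the fitted passage 1 change; the passage 6 points lie right of 0 for most genes, while the passage 1 crosses lie around 0.

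Lysosomal genes also leaned upward. Of 28 lysosome and autophagy genes 9 rose and 2 fell (median log2 change 0.15), against 8.98% and 10.8% of all genes. At passage 1 there were 1 higher and 11 lower, where 11.5% and 18.9% of all genes were. The membrane glycoprotein gene Lamp1, among the most abundant of them, was at 433, 447 and 437 FPKM in the controls and 630, 617 and 609 FPKM in the experimental libraries (log2 change 0.49 ± 0.05, SE). Npc2, whose product moves cholesterol out of the lysosome, was at 25.4, 24.7 and 24.4 FPKM against 34.6, 36.1 and 33.9 FPKM. Wipi1, an autophagy gene, fell from 19.9, 19.6 and 20.4 to 13.6, 13.1 and 16 FPKM. The 9 higher genes were 5, 5 and 4 without control 1, 2 or 3, and 13 without experimental library 1.

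Hypoxia and glycolysis genes, many of which were raised at passage 1, were mostly not raised at passage 6. Of 22 glycolysis genes 15 were higher at passage 1 (median log2 change 0.62), where 11.5% of all genes were. At passage 6, 1 was higher and 3 were lower (median -0.08), near the 8.98% and 10.8% over all genes. Of 17 hypoxia genes 9 were higher at passage 1, and at passage 6 2 were higher and 7 lower (median -0.12). Bnip3 was at 11.6, 13.4 and 13.2 FPKM in the passage 6 controls and 8.09, 6.9 and 7.99 FPKM in the experimental libraries, a log2 change of -0.67 ± 0.08 (SE), against 1.77 at passage 1. The HIF target gene Ankrd37 fell from 4.18, 4.55 and 4.87 to 2.55, 2.3 and 1.95 FPKM. The glycolytic enzyme gene Pgk1 was at 112, 112 and 112 FPKM in the controls and 99.5, 83.8 and 82.6 FPKM in the experimental libraries, and the glucose transporter gene Slc2a3 at 63.5, 66.1 and 63.4 FPKM against 45.5, 50.5 and 54.8 FPKM, with passage 1 changes of 0.96 and 0.95. The lactate transporter gene Slc16a1 was the one glycolysis-list gene that rose, from 67.9, 67.7 and 69.1 to 92.2, 89.8 and 84.9 FPKM. Anxa2, an annexin gene, reversed as well, from 1.20 at passage 1 to -0.54 at passage 6, where it was at 18.7, 20.2 and 20.4 FPKM against 14.5, 13 and 12.5 FPKM. The difference between the passages was called for 13 glycolysis and 10 hypoxia genes with the passage 6 change the lower, against 6.27% of all genes. The glycolysis calls at passage 6 were weak: without control 1, 2 or 3 there were 0 lower genes and without experimental library 2 or 3 there were 2 and 1, and the adjusted p of Pgk1 was 0.0823, 0.0832, 0.0828, 0.0654 and 0.0652 in these 5 fits and that of Slc2a3 0.0597, 0.0715 and 0.0603 without the controls. Without control 1, 2 or 3 the hypoxia list had 0 higher and 4, 3 and 3 lower, and without experimental library 2 or 3 it had 1 higher and 5 lower. After median-of-ratios scaling the hypoxia list had 4 higher and 5 lower. When the passage 6 change came from 1 fit over both passages, the hypoxia list had 1 higher and 1 lower. In that fit the glycolysis list had 1 higher and 0 lower, and the Bnip3 call ended (adjusted p = 0.119, limma).

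The noradrenergic and neuronal genes moved in both directions. Ltk, a receptor tyrosine kinase gene related to the neuroblastoma gene Alk, fell from 8.77, 8.06 and 8.12 FPKM to 3.6, 2.84 and 2.76 FPKM (log2 change -1.20 ± 0.09, SE). Of 13 tested catecholamine and granule genes 4 rose and 2 fell. The 2 that fell act in making and storing the transmitter: Dbh, which encodes dopamine beta-hydroxylase, was at 8.59, 7.88 and 8.57 FPKM in the controls and 3.67, 5.26 and 4.82 FPKM in the experimental libraries, and Slc18a2, the vesicular monoamine transporter gene, at 47.7, 48.1 and 47 FPKM against 35.7, 32.1 and 34.4 FPKM. The granule genes Cpe, a prohormone-processing enzyme, and Scg5 rose, Cpe from 65.4, 67.4 and 63.3 to 94, 104 and 104 FPKM and Scg5 from 69.1, 74.2 and 70.7 to 96.5, 98.4 and 97.8 FPKM. The sympathetic factor gene Isl1 was at 2.49, 2.49 and 2.38 FPKM against 3.78, 3.58 and 3.86 FPKM. Of 19 synaptic genes 5 rose and 0 fell, among them the vesicle genes Syp (22.5, 22.2 and 20.8 against 28, 33.5 and 30.9 FPKM) and Syt1 (27.4, 27.7 and 26.6 against 34.8, 34.7 and 38.3 FPKM), and of 19 neuronal cytoskeleton genes 4 rose, among them Stmn3 (77.5, 77.8 and 75.8 against 92.7, 100 and 95.3 FPKM). These 2 lists moved with the brain markers: their medians were 0.06 and 0.06 in experimental library 1, against 0.31 to 0.34 and 0.19 to 0.21 in libraries 2 and 3. Without experimental library 1 the counts were 14 and 11, and with it alone 5 synaptic genes were called higher and 2 lower. The part of the brain transcripts in these calls was not tested. Without control 1, 2 or 3 there were 1 neuronal cytoskeleton gene and 2 catecholamine genes higher each time, and 3 synaptic genes higher without control 2.

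Some genes of blood-cell lineages, detected here at low to moderate levels, fell. Of 10 tested genes 4 fell and 1 rose (median log2 change -0.25), and without control 1, 2 or 3 there were 3 lower and 0 higher. Lmo2, a transcription cofactor gene of early blood cells, was at 6.03, 5.53 and 6.18 FPKM in the controls and 2.36, 2.04 and 1.62 FPKM in the experimental libraries, a log2 change of -1.21 ± 0.10 (SE). The signalling adaptor gene Grap2 was at 6.79, 6.68 and 6.97 FPKM against 4.06, 2.37 and 2.78 FPKM and the adhesion gene Icam2 at 38.3, 37.4 and 34 FPKM against 25.5, 21.5 and 22.2 FPKM. Myb was at 5.04, 4.73 and 4.86 FPKM against 3.86, 3.35 and 3.14 FPKM, a change called with all libraries but not without control 1, 2 or 3 (adjusted p = 0.0603, 0.0526 and 0.0563). Each of the 4 was lowered less than at passage 1, where the changes were -1.85, -1.96, -1.12 and -1.51. The common leukocyte gene Ptprc was at most 0.039 FPKM in any passage 6 library. Ptgs1, the cyclooxygenase-1 gene, fell from 53.1, 52.5 and 52.5 to 33.7, 26.3 and 27 FPKM, and Ctla2a, a protease inhibitor gene, from 92.8, 96 and 89.7 to 65.1, 49.1 and 41.9 FPKM. For Ctla2a experimental library 1 was the survivor library nearest to the controls. Others that fell at both passages were Lnp1 (8.11, 9.01 and 8.13 against 3.51, 2.4 and 1.86 FPKM), the respiratory subunit gene Ndufa7 (36.3, 36.8 and 34.5 against 24.2, 19.2 and 16.6 FPKM) and Enpp1, which encodes an enzyme that makes pyrophosphate (41.5, 43.2 and 42.1 against 26.8, 22.6 and 29.5 FPKM).

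Mir17hg and Snhg15, noncoding RNAs that host small RNAs, fell at passage 6, and their passage 6 changes lay below those of passage 1. They were named for the size of their changes, and host transcripts were not tested as a group. Mir17hg, from which the miR-17 to miR-92 cluster is cut, was at 7.33, 8.33 and 7.76 FPKM in the controls and 3.41, 3.24 and 4.12 FPKM in the experimental libraries (log2 change -0.94 ± 0.09, SE), and its difference from the passage 1 change was -1.19 (adjusted p = 0.000302, limma). Snhg15, a small nucleolar RNA host gene, was at 38.8, 36.2 and 35.3 FPKM against 20, 20.5 and 19.2 FPKM, with a difference of -0.83 (adjusted p = 0.00137). For both genes all 3 survivor libraries lay below the controls, as a call all but requires.

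In the ATF4 and chromatin lists the shares of lower genes, 25% and 21.4%, were above the 10.8% over all genes. Those of the mitosis and DNA replication lists, 13.3% and 12.9%, were just above it. In the other lists of this paragraph the counts were small. Of 20 ATF4 and amino acid genes 3 rose and 5 fell. Among those that fell were the stress genes Chac1 (23.3, 24.4 and 25.2 against 14.5, 13.1 and 16.8 FPKM), Ddit3, which encodes CHOP (25.8, 28.5 and 24.6 against 18.8, 16.7 and 15.3 FPKM), and Trib3 (39, 38.4 and 39.3 against 26.8, 29.1 and 26.9 FPKM). The 5 were 3 without control 2 or control 3, and the 3 higher were 2, 1 and 1 without control 1, 2 or 3. Of 20 heat shock genes 2 rose and 0 fell, with Hspa8 at 298, 306 and 303 FPKM against 348, 363 and 346 FPKM, and none was called without control 1, 2 or 3 (adjusted p of Hspa8 0.092, 0.0796 and 0.0855). Beside 8.98% higher and 10.8% lower over all genes, the counts higher and lower were 2 and 0 of 21 for endoplasmic reticulum folding, 1 and 1 of 22 for NRF2 and redox genes, 3 and 2 of 22 for p53 and apoptosis genes, 1 and 4 of 30 for mitosis, 2 and 4 of 31 for DNA replication and 0 and 6 of 28 for chromatin genes. Orc6, a subunit of the origin recognition complex, fell from 21.7, 22 and 22.4 to 16.7, 15.5 and 16.1 FPKM. Mitosis genes had 16 higher of 30 at passage 1 and chromatin genes 8 of 28, where 11.5% of all genes were higher. The 6 chromatin calls were 0 without control 1, 2 or 3 and 2 without experimental library 2. Without control 1, 2 or 3, 0 mitosis genes and 0 NRF2 and redox genes were called, 0 DNA replication genes were higher and 2, 1 and 1 lower. Without control 1 or 2, 0 genes were called in the p53 and endoplasmic reticulum lists, and without control 3 the p53 list had 0 higher and 2 lower and the endoplasmic reticulum list 1 higher.

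Genes that respond to cold were not raised. Of 10 cold-inducible and temperature-sensitive splicing genes 0 rose and 5 fell (median -0.24). The cold-inducible RNA-binding protein gene Cirbp was at 19.1, 21.3 and 20.1 FPKM in the controls and 16.7, 14.6 and 12.7 FPKM in the experimental libraries (log2 change -0.44 ± 0.10, SE, adjusted p = 0.0214, limma), a call that ended without control 1, 2 or 3 or experimental library 2 (adjusted p = 0.0578, 0.0861, 0.0758 and 0.0597). Rbm3, its relative, was at 52.7, 56.1 and 56.6 FPKM against 56.1, 46.5 and 51 FPKM, with groups that overlapped. The splicing factor gene Srsf2 was at 154, 150 and 150 FPKM against 120, 85.6 and 86.2 FPKM, lowest in experimental libraries 2 and 3, and its adjusted p without control 1, 2 or 3 was 0.0582, 0.0581 and 0.0557. The list had 1 higher and 3 lower after median-of-ratios scaling. The 5 calls of the list were 1, 0 and 1 without control 1, 2 or 3, 7 without experimental library 1, and 2 and 3 without experimental library 2 or 3.

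Lists of highly expressed housekeeping genes separated experimental library 1 from the other 2. The median of 39 ribosomal protein genes was 0.05 in experimental library 1 and -0.27 and -0.33 in libraries 2 and 3. For 25 nuclear respiratory chain genes the medians were 0.11, -0.11 and -0.10, and for 26 proteasome genes 0.07, -0.16 and -0.16. With all 3 libraries, 1 ribosomal gene was called higher and 3 lower. Without experimental library 1, 28 were lower, as were 2411 of all 12458 genes tested. Transcripts encoded by the mitochondrion made up 27.1% to 27.4% of FPKM in the controls and 26.8%, 25.6% and 25.0% in experimental libraries 1, 2 and 3, and 1 of the 13 fell, a call that ended without any 1 control. The nuclear RNA Malat1 fell from 28.2, 25.4 and 27.9 to 20.1, 19.6 and 19.2 FPKM. Experimental libraries 2 and 3, which stand apart here, are those with the high liver and brain sums, and the part of those transcripts in these values was not tested.

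**Figure D4:**
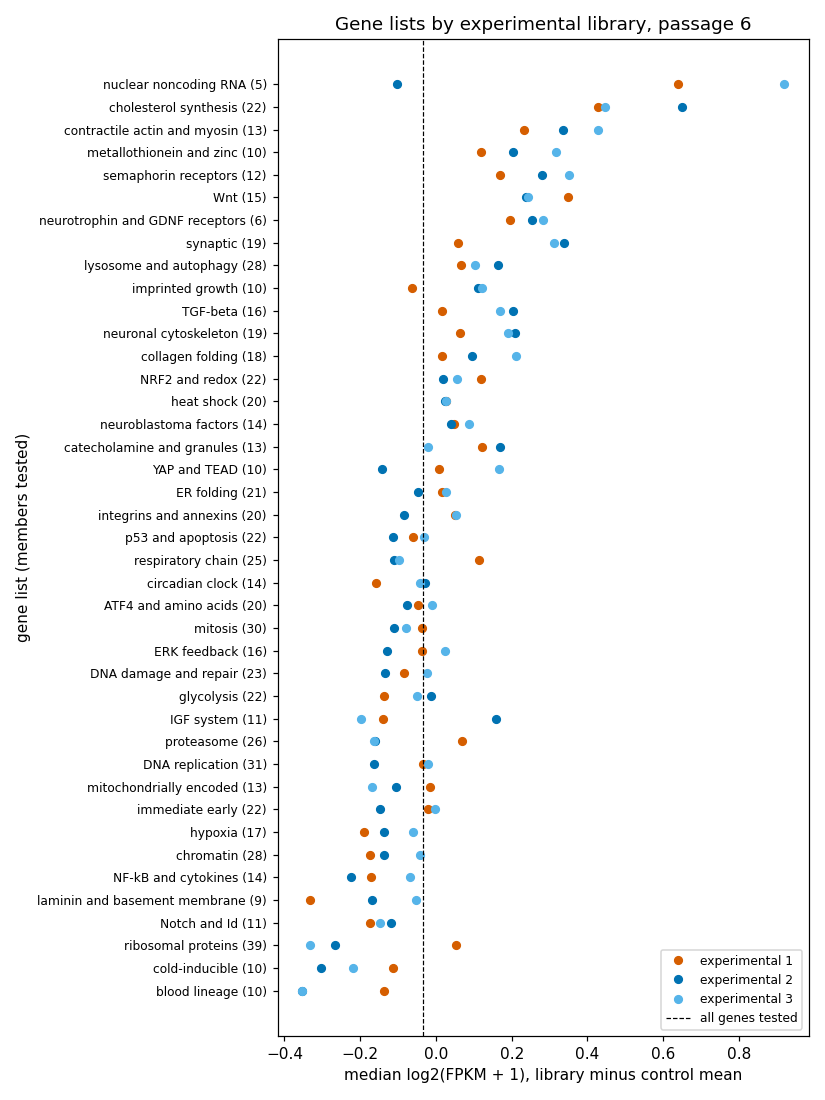
Median over the tested members of each gene list of log2(FPKM + 1) in 1 experimental library minus the control mean, with the number of members in brackets and a dashed line at the median of all genes (-0.04). The 3 libraries lie together on the right for cholesterol synthesis (0.43, 0.65 and 0.45), while experimental library 1 stands apart for ribosomal protein, respiratory chain, proteasome and synaptic genes.

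Experimental library 1, whose liver and brain sums were near those of the controls, differed from the controls less than experimental libraries 2 and 3 did. Over the genes tested, its log2 levels correlated with those of the controls at 0.981 to 0.982 (Pearson). Those of libraries 2 and 3 did so at 0.968 to 0.972. Its share of their change was read over genes called without it, 1885 higher and 2411 lower, so that its own values called none of them, although the controls are shared. Libraries 2 and 3 did choose these genes, which raises their own differences. A share under 1 can therefore arise even if the 3 libraries are alike, and no such share was computed for library 2 or 3. Over the 1885 higher genes its log2 difference from the controls was a median 0.61 of the mean difference of libraries 2 and 3, and over the 2411 lower genes 0.55. It lay beyond all 3 controls on the same side for 1465 (77.7%) of the higher genes and 1794 (74.4%) of the lower genes, within their range for 223 and 358, and beyond them on the other side for 197 and 259. Genes that were at least 2-fold higher in libraries 2 and 3 were shared least: over these 76 genes the median share was 0.15, and library 1 lay above the controls for 42. Over the 130 that were at least 2-fold lower the median share was 0.41, and library 1 lay below the controls for 105. Over the 2462 genes called with all 3 libraries the median share was 0.87 in each direction, but there the values of library 1 helped to choose the genes. Of 21 tested colon markers 15 were called lower, and the median log2 difference of those tested was -0.79 in experimental library 1 against -2.86 and -2.99 in libraries 2 and 3. Colon markers, too, could enter the test through the controls alone, which favours lower calls. With experimental library 1 alone 1 colon marker was called, and the 15 were 6, 1 and 1 without control 1, 2 or 3 and 1 without experimental library 2 or 3. The fibroblast collagen gene Col1a1 shows the opposite case: it was at 0.265 FPKM in experimental library 1, below the controls at 2.24, 2.67 and 4.92 FPKM, and reached 90.8 FPKM in library 2 and 82.1 FPKM in library 3, and it was not called. The liver-list gene Ass1, an enzyme of arginine synthesis, did not follow the other liver markers: it was at 6.04, 6.66 and 8.12 FPKM in the controls and 14.8, 13.1 and 16.7 FPKM in the experimental libraries, so that it was as high in library 1 as in the others.

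Genes that had changed at passage 1 were read at passage 6 in libraries that played no part in choosing them. Passage 1 had 3 controls and 4 experimental libraries, and 1434 genes (11.5%) were higher and 2358 (18.9%) lower there, a split that became 1843 and 1754 after median-of-ratios scaling. Of the 1386 genes higher at passage 1 that were tested at passage 6, 372 were higher again (26.8%, against 8.98% of all genes tested at passage 6) and 36 were lower. Of the 2277 lower at passage 1, 475 were lower again (20.9%, against 10.8% of all genes) and 90 were higher. For larger changes, of 62 genes at least 2-fold higher at passage 1, 39 were higher at passage 6 and 3 lower, and of 41 at least 2-fold lower, 27 were lower and 0 higher. The medians of those 62 genes were 0.47, 0.57 and 0.69 in experimental libraries 1, 2 and 3, and of those 41 genes -0.48, -0.85 and -1.05, so library 1 was nearest to the controls in both sets. Looked at from passage 6, 33.8% of the 1102 higher genes and 37.8% of the 1256 lower genes that were tested at both passages had the same call at passage 1.

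The size of single changes shifted between the passages. Acta2 had log2 changes of 3.97 and 3.30 at passages 1 and 6, Myl9 3.08 and 1.86, Actg2 2.77 and 1.66, and Igfbp2 2.70 and 1.46, each smaller at passage 6 by the test of the difference. Fkbp10 (1.81 and 1.75), Igfbp5 (1.39 and 1.43) and Igfbp4 (0.47 and 0.51) did not pass that test, with differences of -0.05 ± 0.16, 0.04 ± 0.09 and 0.03 ± 0.09 (SE). The endothelial protein C receptor gene Procr and the neurofilament gene Nefh were lowered at passage 1 (log2 changes -1.77 and -0.99) and lay close to the controls at passage 6. Procr was at 44.5, 43.7 and 42.3 FPKM in the controls and 40.6, 33.6 and 31.2 FPKM in the experimental libraries, which did not pass the test, and Nefh at 43.8, 43 and 40.5 FPKM against 47.7, 52 and 47.9 FPKM, a call that held without experimental library 1 and in no other fit that left out 1 library. Because each passage has its own deposited table, levels were not compared between passages, only the changes.

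**Figure D5:**
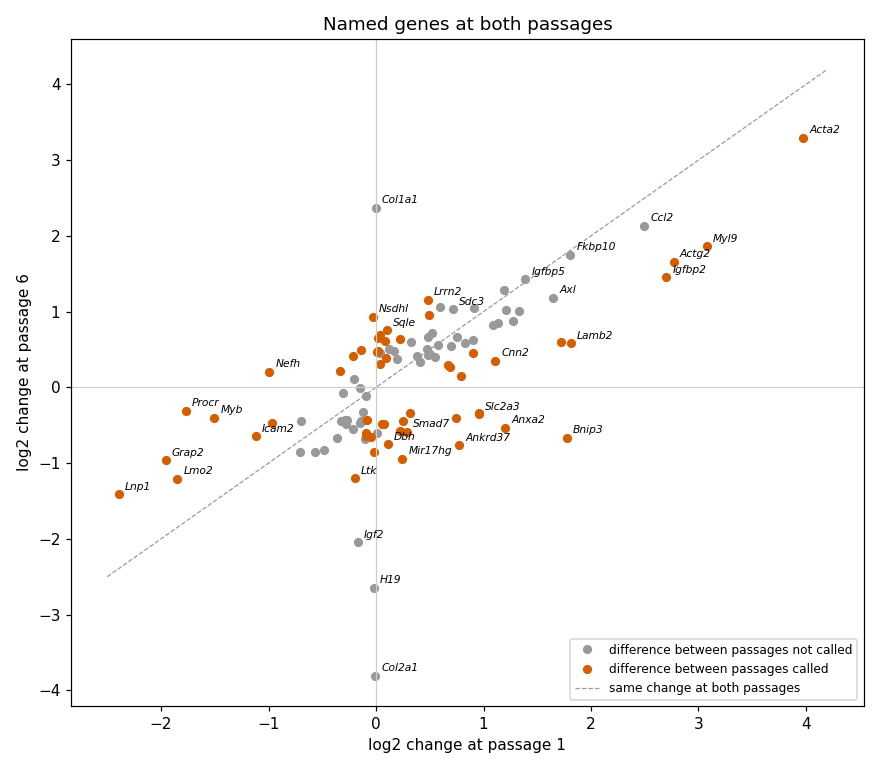
Log2 change at passage 6 against log2 change at passage 1 for the named genes, with orange points where the difference between the passages was called. Acta2, Myl9, Actg2 and Igfbp2 lie below the dashed line of equal change, Bnip3 and Anxa2 lie above 0 at passage 1 and below 0 at passage 6, and Col2a1, H19 and Igf2 lie near 0 at passage 1 only.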

How the data were processed

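Poly(A) RNA of Neuro2a cells was sequenced in 13 libraries, 7 of passage 1 and 6 of passage 6. The authors deposited gene FPKM in 1 table per passage, with no counts. Per the submitters' processing notes the tools were cutadapt, HISAT2, StringTie, DESeq2 and edgeR on mm10, without versions, and the use made of each is not given in the sources used here. FPKM depend on the summed FPKM of a library, so a few abundant transcripts can shift all others. Groups came from the sample titles and columns were matched by name.

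The change between the 3 experimental and 3 control libraries was fitted to log2(FPKM + 1) for genes reaching 1 FPKM in 3 or more libraries, using limma 3.58.1 (R 4.3.3) with a mean trend and Benjamini-Hochberg adjustment at 0.05 over all genes tested. Fold changes on this scale understate low genes. Each passage was fitted alone, and the difference between passages in 1 fit over 13 libraries. The calculation was tested on simulated data. Means and medians were computed with Python 3.11.15, numpy 2.4.6 and pandas 2.3.3, and plots drawn with matplotlib 3.10.9. Alternatives were other pseudocounts, filters and scalings, the fit without trend, the replicate number as a block, each library left out, and experimental library 1 alone, a fit in which that lone library is assumed to vary like the controls.

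Genes to name were drawn, with a mean of at least 5 FPKM, from the 10 largest called changes each way, the 10 also called at passage 1, the 10 outside the marker lists whose groups were tight, the 5 for which experimental library 1 lay within the control range (0 genes met this) and the 5 with the largest difference between passages. Up to 4 called genes of each list, or its 2 most abundant where none was called, and Cirbp and Rbm3 were added, and not all are printed. Cnn2, Tpm1, Tpm2, Myh9, Vcl, Tagln, Hmgcs1, Srebf2, Lss, Ebp and Stard4, and the tissue markers, were picked after seeing their values. The gene lists, and the comparison itself, were chosen with earlier results of these data known. Promoter windows are from RefSeq (GRCm38.p6), of which 32851 were searched on both strands. Some genes are not reported here.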

Additional observations from a re-analysis of the deposited data

Results flagged for a closer look

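The change from control to survivor differed between passage 6 and passage 1 for 54 of the 110 named genes. This was a limma test of the difference itself, with Benjamini-Hochberg adjustment over 13019 genes. Of all 13019 genes, the passage 6 change was above that of passage 1 for 8.46% and below it for 6.27%. Some named genes were picked for the size of this difference, so the count is not a result about them as a set. Each value below is the passage 6 log2 change minus the passage 1 log2 change, from 13 libraries. Contractile and adhesion genes had the lower change at passage 6: the differences were Acta2 -0.67, Actg2 -1.11, Myl9 -1.21, Cnn2 -0.76, Tpm1 -0.37, Tpm2 -0.42, Vcl -0.63 and Itga7 -0.55. Matrix and growth factor genes did likewise, with Lamb2 -1.23, Lama4 -0.51, Col18a1 -0.79, P4ha1 -1.15, P4ha2 -0.69 and Igfbp2 -1.25. Hypoxia, glycolysis and annexin genes had some of the widest gaps, with Bnip3 -2.44, Anxa2 -1.74, Ankrd37 -1.53, Slc2a3 -1.31 and Pgk1 -1.29. Among signalling and immediate early genes the differences were Egr2 -1.12, Jun -0.53, Dusp1 -0.56, Nfkbia -0.66 and Smad7 -0.88, and among neuroblastoma genes and others Ltk -1.004, Dbh -0.86, Isl1 -0.45, Mir17hg -1.19, Snhg15 -0.83, Srsf2 -0.61 and Orc6 -0.34.

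The passage 6 change was the higher one for sterol and lysosome genes, with Nsdhl 0.96, Fdps 0.66, Sqle 0.65, Msmo1 0.63, Srebf2 0.41, Lamp1 0.63 and Npc2 0.46. Blood-lineage genes, Lnp1 and Procr, which were lowered at passage 1, were less lowered or near the controls at passage 6, with differences of Procr 1.46, Myb 1.10, Grap2 1.00, Lnp1 0.98, Lmo2 0.64 and Icam2 0.47. Neuronal and granule genes had differences of Nefh 1.20, Cpe 0.53, Slc18a2 0.50, Syt1 0.29, Stmn3 0.28 and Sema6a 0.47. The remaining ones were Lrrn2 0.67, Slc39a6 0.62, Hspa8 0.55 and Fam3c 0.47.

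At passage 1, experimental library 4 stood far below the other 3 experimental libraries for the cartilage collagen gene Col2a1 (0.320 FPKM against 14.3 to 15.9 FPKM), for H19 (0.292 against 7.11 to 7.16 FPKM) and for Igf2 (0.0211 against 3.93 to 4.18 FPKM). These were marked by Dixon's test for a single distant value in a group of 4, which chance alone marks in about 1 in 20 groups. Control 1 of passage 1 was also low for these genes, at 0.0702, 0.0212 and 0 FPKM, against 23.1 and 24 FPKM of Col2a1 in the other 2 controls.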

How the results depend on the processing

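The count of genes changed at passage 6 was 2462 with all libraries, and ranged from 723 to 4296 when 1 library was left out. The 3792 genes changed at passage 1 ranged from 2173 to 4058, and the 1918 calls for the difference of the change between passages from 1164 to 2552. Without the filter on low values the counts were 1286 at passage 6 and 1185 for the difference. With the replicate number as a block they were 1438, 1813 and 728, but the numbers do not pair the samples: the deviations of same-numbered passage 6 libraries correlated at -0.066, -0.06 and 0.033, and the labels tie no number to a shared vial or day. Other settings, which were other pseudocounts, a minimum of 5 FPKM, median-of-ratios scaling, quantile normalization and limma without the trend, kept each count within 1.5 times. Median-of-ratios scaling turned the passage 6 split from 45.5% to 54.1% higher, and the passage 1 split from 37.8% to 51.2% higher. Of 1746 pairs of a named gene and an alternative, 1672 kept direction and call, 67 lost the call, 6 gained it and 1 reversed: Col1a1 had a log2 change of -1.71 with experimental library 1 alone, and positive with all 3. The cause of each shift was not tested. The depth of each library is unknown, so counting error cannot be given, and genes under 1 FPKM are the least certain.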

Other observations

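Zinc genes, and imprinted genes other than Igf2 and H19, were not described above. Of 10 metallothionein and zinc transport genes 3 rose and 0 fell, against 8.98% and 10.8% of all genes. The zinc importer gene Slc39a6 was at 64, 64.1 and 62.7 FPKM in the controls and 90.2, 83.3 and 81.5 FPKM in the experimental libraries. Without control 1, 2 or 3 there was 1 higher zinc gene each time. Without experimental library 1 there were 6, in a fit where 1885 of all 12458 genes were higher. Of 10 imprinted growth genes 1 rose and 3 fell, against 8.98% and 10.8% of all genes. Without experimental library 1 or 2 there were 4 and 2 higher, as were 1885 and 883 of all 12458 genes in those fits. The lowest log2 change of the list, -2.64, was that of H19, described above beside the cartilage markers. Peg10 rose from 37.2, 37.5 and 38.1 to 54.8, 46.2 and 50.3 FPKM, and Impact, which encodes a regulator of translation, fell from 77.4, 77.9 and 78.7 to 63.4, 52.5 and 55.1 FPKM. In the Notch and Id list 2 of 11 rose and 3 fell, against 8.98% and 10.8% of all genes. Without control 1, 2 or 3 or experimental library 3 there were 0 higher and 2 lower, without experimental library 1 there were 1 higher and 5 lower, and without experimental library 2 there were 1 higher and 3 lower. Notch2 was at 9.85, 9.68 and 9.79 FPKM in the controls and 6.28, 6.88 and 7.75 FPKM in the experimental libraries, and Id1, an inhibitor of basic helix-loop-helix factors, at 93, 96.9 and 93.5 FPKM against 71.8, 71.8 and 66.1 FPKM. Experimental library 1 lay outside the range of the controls for Slc39a6, Peg10, Impact, Notch2 and Id1, as it did for every called gene.

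Libraries low in the cartilage collagen gene Col2a1 were also low in H19 and Igf2 at passage 1. Col2a1 was at 0.0702, 24 and 23.1 FPKM in passage 1 controls 1, 2 and 3, H19 at 0.0212, 11.2 and 10.3 FPKM and Igf2 at 0, 6.44 and 6.56 FPKM. The fibroblast collagen gene Col1a1 had the same order at passage 1, at 0.047, 4.65 and 4.29 FPKM in controls 1, 2 and 3. These are levels of transcripts in the libraries, and the cells they come from were not tested.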
